A study of Mus musculus with 12 samples.

Results

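Sebaceous gland lipid genes were followed in mouse back skin across normal skin, imiquimod (IMQ)-induced lesions and lesions treated with the Banzhilian formula (BZLF). The set holds 9 of the 18505 genes in the expression table, Scd1, Scd3, Awat1, Awat2, Dgat2, Mc5r, Elovl3, Soat1 and Fa2h. They were listed by symbol for their roles in sebocyte lipids. No cutoff on their values was used, but earlier results of these data were known when they were chosen. All 9 had values above 0 in every sample and all 9 were among the 15288 genes tested. RNA-seq was performed on 12 samples of back skin from wild-type (WT) BALB/c mice, 4 in each of 3 groups, on day 10. Per the study's methods the mice had their backs shaved. Control backs received petroleum jelly (the sample labels call its treatment white space handling), the IMQ + NS group received IMQ cream and then a sodium chloride solution under gauze and film, and the IMQ + BZLF group received IMQ cream and then BZLF under the same cover. IMQ is a Toll-like receptor agonist that provokes a psoriasis-like dermatitis in mice. BZLF was applied at several doses in the study, and which dose the sequenced samples received is not stated in the sources used here. The controls had no gauze and film in the description given, so the cover and IMQ cannot be told apart. The sources do not say whether each sample was a separate mouse, and the p-values measure the spread between these samples.

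Sebaceous glands sit beside the hair follicle, where sebocytes fill with lipid, burst and release sebum onto the hair and skin. Mouse sebum is rich in wax esters, triglycerides and cholesterol esters, which are built by desaturating and elongating fatty acids and then joining them to alcohols, glycerol or sterols. The 9 genes cover these steps. Scd1 and Scd3 encode stearoyl-CoA desaturases, Elovl3 a fatty acid elongase, Fa2h a fatty acid 2-hydroxylase, Awat1 and Awat2 acyl-CoA wax alcohol acyltransferases, Dgat2 a diacylglycerol acyltransferase, Soat1 a sterol O-acyltransferase and Mc5r a melanocortin receptor of sebaceous and other exocrine glands.

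Values are FPKM, read fragments normalized for transcript length and for the depth of the sample, so levels of different genes can be compared per length. Summed over all genes the samples held 444660 to 461199 FPKM in the controls, 492551 to 506622 in the IMQ + NS group and 476676 to 493935 in the IMQ + BZLF group. Every control thus had a lower total than every lesion sample, and the main fits did not rescale for this. Results with samples rescaled to equal sums are given where they differ for any of the 9 genes near the limit. They are not given for each other gene named, so calls close to the limit among those may depend on the scaling. The 12 samples had 16649 to 16941 genes above 0. A library of the control group stood apart: control replicate 2 held 1974 FPKM of inner root sheath genes against 19.5 to 58.2 in the other controls, 3654 FPKM of skeletal muscle genes against 8184 to 8883, and 39.6 FPKM of seminal vesicle genes, which were at 0 in the other controls. IMQ + BZLF replicate 2 held 39.5 FPKM of the same seminal vesicle genes against at most 0.044 in the rest of its group. Where leaving out 1 of these libraries changed the call of a gene named here, its value without the library is given. Counts over lists of genes use all samples. The samples are bulk skin, in which fewer cells of a type and less RNA per cell cannot be told apart.

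The sebaceous lipid genes did not all move in 1 direction in IMQ-induced lesions. Compared with the control group, the wax ester, desaturase and triglyceride genes Scd3, Awat2, Awat1 and Dgat2 fell in the IMQ + NS group, by 11.4-, 7.58-, 2.85- and 2.003-fold. Scd1 and Fa2h were lower by less than the 2-fold limit, Elovl3 and Soat1 were higher by less than that limit, and Mc5r stood at 5.88 ± 1.32 FPKM against 5.71 ± 0.93 FPKM in the control group (SD, n = 4 each). A gene was called at an adjusted p below 0.05 by limma and a change of over 2-fold, that is 1 on the log2 scale. By this rule 4 of the 9 genes were lower and 0 higher, where 11% of all tested genes were called lower and 11.4% higher. At an adjusted p below 0.05 alone, 6 of the 9 were lower and 2 higher, against 27.1% and 29% of all genes. The FPKM values of the 4 lesions and 4 controls did not overlap for 7 of the 9 genes, which was the case for 49.4% of all genes. The median log2 fold change of the 9 genes was -0.98, and that of all genes was 0.05.

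**Figure D1:**
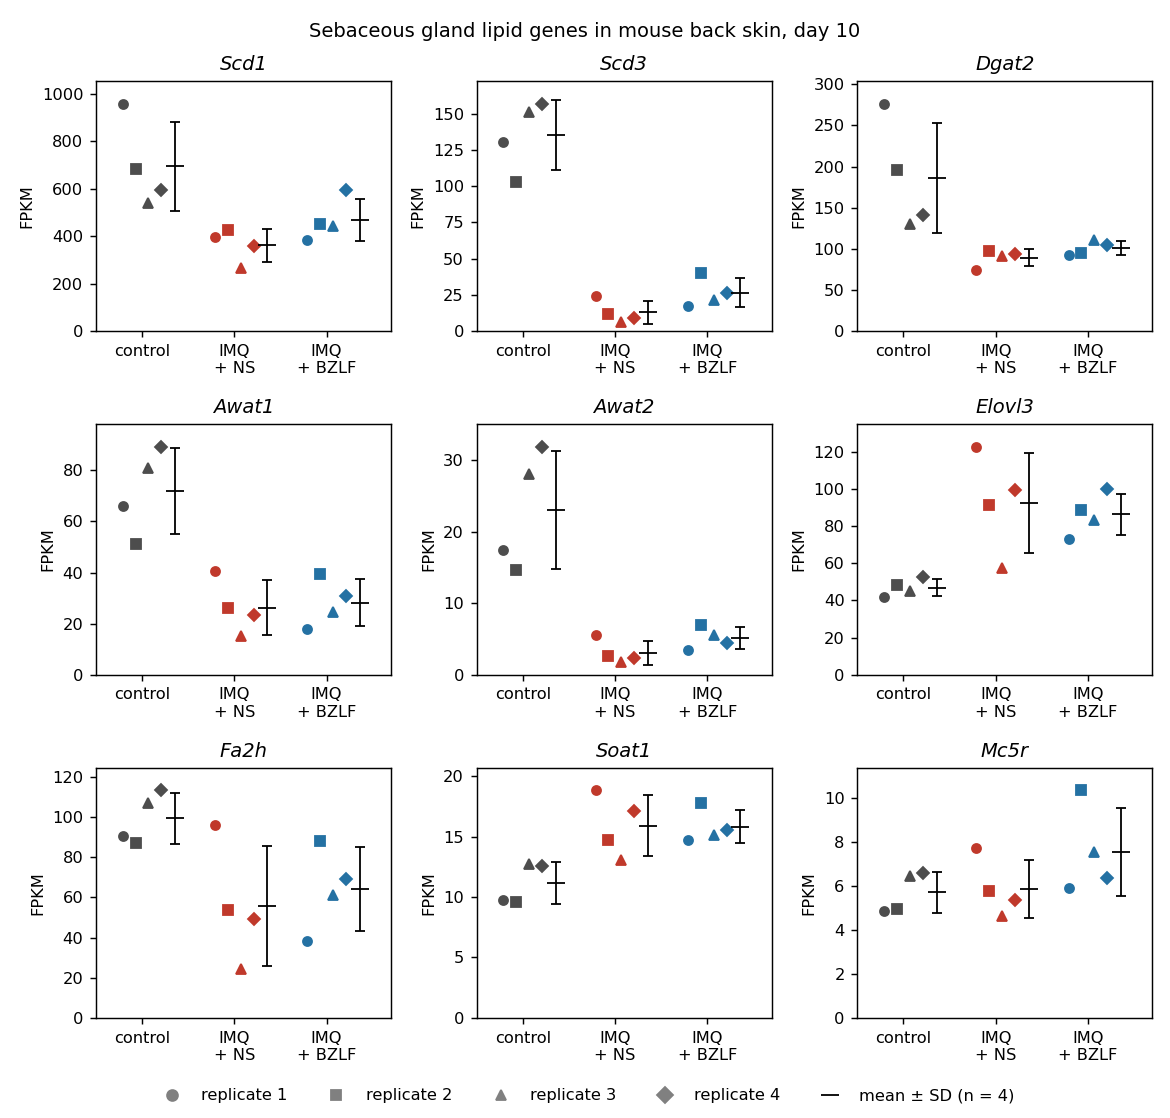
FPKM of each of the 9 sebaceous lipid genes (linear vertical axes from 0, own scale per gene) in the 3 groups (control, IMQ + NS, IMQ + BZLF). Each symbol is 1 sample, with the symbol shape giving the replicate number, and bars show mean ± SD (n = 4). Scd3 lies at 103 to 157 FPKM in the controls and at 6.55 to 40.3 FPKM in all 8 lesion samples, whereas Elovl3 lies at 41.7 to 52.7 FPKM in the controls and at 57.3 to 123 FPKM in the lesions.

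Scd3, a desaturase that makes monounsaturated fatty acids, showed the widest change of the 9. Its FPKM was 131, 103, 151 and 157 in control replicates 1 to 4. In the lesions it was 24.4, 11.9, 6.55 and 9.45 with NS and 17.7, 40.3, 21.9 and 26.6 with BZLF, in the same order of replicates. All lesion samples lay far below the lowest control, and IMQ + NS replicate 1 reached into the range of the treated lesions. In IMQ + NS against control its log2 fold change was -3.52 (SE 0.35, adjusted p = 8.11e-05, limma).

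Scd1, the main desaturase of sebocytes whose loss gives the asebia mutant mouse, was the most abundant of the 9 genes in each group. It measured 957, 684, 540 and 593 FPKM in the controls, 397, 428, 267 and 358 FPKM in IMQ + NS lesions, and 384, 453, 442 and 593 FPKM in IMQ + BZLF lesions. Every IMQ + NS sample lay below every control, and IMQ + BZLF replicate 4 reached the control range. The log2 fold change of IMQ + NS against control was -0.92 (SE 0.20, adjusted p = 0.00461), short of the fold limit. It passed the limit under equal sums per sample (-1.06), under quantile normalization (-1.25), without control replicate 3 (-1.03) and without IMQ + NS replicate 2 (-1.01).

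The 2 desaturases are neighbors. In the GRCm38 build Scd3 occupies chr19:44203269-44244016 on the plus strand and Scd1 chr19:44394455-44407879 on the minus strand, within a cluster of 4 Scd genes that spans 205 kb and holds 0 other protein-coding genes. Their coding sequences share 91.5% of 1068 aligned bases, and the longest identical run is 185 bases. The stretches below, coding bases 295 to 354 of Scd1 and 307 to 366 of Scd3 from GENCODE M21, show where 2 genes with such different values differ. The stretch was picked as the 60 aligned bases with the most differences, without a gap and away from both ends. The 18 differing bases are in capitals.
Scd1: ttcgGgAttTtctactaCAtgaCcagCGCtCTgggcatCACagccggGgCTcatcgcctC
Scd3: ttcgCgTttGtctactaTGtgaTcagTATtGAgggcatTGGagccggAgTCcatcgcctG
Of all 50-base windows of the main transcripts, 4.66% for Scd1 and 6.66% for Scd3 also occurred in another gene, whereas the other 7 sebaceous genes had 0%. Reads from such windows may be split between the Scd genes, and the share of windows does not give the size of the effect on a value. In the IMQ + NS group Scd1 averaged 362 FPKM and Scd3 13.1 FPKM, and 167 of the 3440 windows of Scd3 also occurred in Scd1. The part of Scd1 reads in the Scd3 values, and in Scd3 relative to Scd1, was not tested.

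Because both genes were measured in each sample, Scd3 was also expressed in percent of Scd1. It was 20.8 ± 7.46% in controls, 3.503 ± 1.76% in IMQ + NS lesions and 5.73 ± 2.13% in IMQ + BZLF lesions (SD, n = 4 each). Both lesion groups lay below the controls without overlap (exact permutation test, two-sided, p = 0.0286, the smallest that 4 against 4 samples allow). Between the lesion groups the values overlapped (p = 0.114, exact permutation test). IMQ + NS replicate 1, at 6.14%, and IMQ + BZLF replicate 2, at 8.91%, stood above the rest of their groups.

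The other desaturases of the cluster gave different values. Scd2, a desaturase prominent in brain and in early skin, measured 70.8, 121, 48.1 and 46.7 FPKM in the controls, 113 to 124 FPKM in IMQ + NS lesions and 77.7 to 97.9 FPKM in IMQ + BZLF lesions. Control replicate 2, the library with inner root sheath transcripts, was the highest control and the only one inside the range of the lesions. Against the controls, Scd2 was 0.83 higher on the log2 scale in IMQ + NS lesions (adjusted p = 0.0278), and BZLF-treated lesions differed from these by -0.49 (adjusted p = 0.00904). Neither passed the fold limit, but without control replicate 2 Scd2 was called higher in IMQ + NS lesions at 1.12 (adjusted p = 0.00017). Scd4 stayed near the detection limit at 0.38 ± 0.17 FPKM in the controls and 0.35 ± 0.16 FPKM in the IMQ + NS group.

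Awat2, which esterifies long-chain alcohols into wax esters, fell with Scd3. It measured 17.5, 14.7, 28.0 and 31.9 FPKM in the controls, 5.57, 2.596, 1.81 and 2.32 FPKM in IMQ + NS lesions, and 3.48, 6.98, 5.55 and 4.40 FPKM in IMQ + BZLF lesions. The lesion and control ranges did not overlap, and IMQ + NS replicate 1 was again the highest of its group. IMQ + NS differed from control by -2.92 on the log2 scale (SE 0.36, adjusted p = 0.000251).

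Awat1, the related wax synthase, fell less. It measured 66.2, 51.2, 81.1 and 89.2 FPKM in the controls, 40.7, 25.9, 15.0 and 23.2 FPKM in IMQ + NS lesions, and 17.9, 39.5, 24.3 and 30.9 FPKM in IMQ + BZLF lesions. The controls lay above all 8 lesion samples, and the lesion groups covered nearly the same range. On the log2 scale the IMQ + NS group differed from the control group by -1.51 (SE 0.29, adjusted p = 0.00242).

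The balance between the 2 wax synthases also differed between the groups. Awat2 in percent of Awat1 was 31.3 ± 4.52% in controls, 11.5 ± 1.79% in IMQ + NS lesions and 18.5 ± 3.56% in IMQ + BZLF lesions (SD, n = 4 each). The treated lesions, at 14.2 to 22.8%, lay above the IMQ + NS lesions, at 10.01 to 13.7%, and below the controls, at 26.4 to 35.7%. Each of the 3 comparisons gave p = 0.0286 by the two-sided exact permutation test. The 2 ratios were chosen after the values had been seen, and over the 6 tests of both ratios the adjusted p was 0.0343 for each comparison except Scd3 relative to Scd1 between the lesion groups (0.114).

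**Figure D2:**
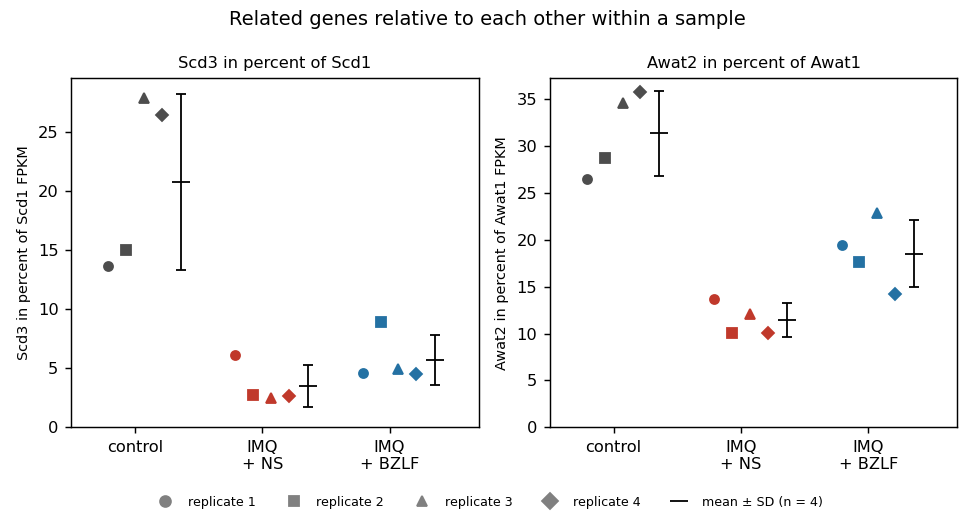
Scd3 in percent of Scd1 (left) and Awat2 in percent of Awat1 (right), FPKM ratios within each sample on linear axes from 0. Each symbol is 1 sample of the control, IMQ + NS or IMQ + BZLF group and bars show mean ± SD (n = 4), with Awat2 at 26.4 to 35.7% of Awat1 in the controls, 10.01 to 13.7% in IMQ + NS and 14.2 to 22.8% in IMQ + BZLF.

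Awat2 and Awat1 lie at chrX:100402221-100442717 and chrX:100572251-100578205, 2 ends of a region of 176 kb that also holds Dgat2l6, a further acyltransferase of the family. Their coding sequences share 61.5% of aligned bases. Dgat2l6 fell as well in the IMQ + NS group, from 23.4 ± 5.57 to 8.26 ± 2.17 FPKM (-1.495 on the log2 scale, adjusted p = 0.000555). The region holds 2 other protein-coding genes, Otud6a and Igbp1. Otud6a overlaps Awat2 on the opposite strand, and Scd3, Elovl3 and Soat1 also overlap an annotated gene on the other strand. Whether the counting used strand is not settled by the sources, so a share of reads from those neighbors in the values of these 4 genes was not tested.

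The RefSeq promoter table for GRCm38.p6 held 4 of the 9 genes, Scd3, Awat1, Awat2 and Soat1. The 250 bases before the start are shown for the 3 that fell, Scd3 at chr19:44203038-44203287 (plus strand), Awat1 at chrX:100571997-100572246 (plus strand) and the outer start of Awat2 at chrX:100442718-100442967 (minus strand). Capitals mark motif matches.
Scd3: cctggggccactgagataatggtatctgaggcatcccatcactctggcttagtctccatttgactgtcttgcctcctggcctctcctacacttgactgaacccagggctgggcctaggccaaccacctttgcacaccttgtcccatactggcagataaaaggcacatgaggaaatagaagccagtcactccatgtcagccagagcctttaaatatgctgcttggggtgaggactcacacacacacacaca
Awat1: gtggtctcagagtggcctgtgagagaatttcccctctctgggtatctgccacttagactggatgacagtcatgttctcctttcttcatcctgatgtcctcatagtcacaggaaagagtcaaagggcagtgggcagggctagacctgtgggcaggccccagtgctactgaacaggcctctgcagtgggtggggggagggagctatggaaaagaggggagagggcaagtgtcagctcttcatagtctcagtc
Awat2: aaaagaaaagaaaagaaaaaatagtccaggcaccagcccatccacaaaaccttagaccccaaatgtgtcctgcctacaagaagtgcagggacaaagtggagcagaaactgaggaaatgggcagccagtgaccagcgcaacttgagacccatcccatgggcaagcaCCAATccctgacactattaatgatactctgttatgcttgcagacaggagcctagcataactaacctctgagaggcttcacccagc
Searched on both strands were 6 motifs. These were CCAAT (in 33.8% of all 32851 promoters), TATAAA (12.4%), GGGCGG (32.7%), CACGTG (6.02%), the SREBP site TCACNCCAC (1.05%) and a direct repeat bound by PPAR (0.0335%). CCAAT occurred in the Awat2 promoter, 85 bases before the start. A second, inner RefSeq start of Awat2 had CCAAT and GGGCGG within 250 bases. None of the 6 motifs occurred in the Scd3 or Awat1 window. The motifs were chosen after the expression values were known, and a match describes letters in a window only.

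Dgat2, which adds the last fatty acid to triglycerides in sebocytes, adipocytes and other cells, stood close to the limit. It measured 276, 196, 130 and 142 FPKM in the controls, 74.4, 97.8, 91.0 and 93.5 FPKM in IMQ + NS lesions, and 92.7, 95.1, 111 and 104 FPKM in IMQ + BZLF lesions. The lesions were tightly grouped below the controls, among which replicate 1 was the highest. Its log2 fold change in IMQ + NS against control was -1.002 (SE 0.22, adjusted p = 0.00511), and this call was lost without control replicate 1 (-0.79), without control replicate 2 (-0.96) and without IMQ + NS replicate 1 (-0.92). Control replicate 1 also had the highest sum of adipocyte genes, 10121 FPKM against 4710 to 7717 FPKM in the other controls. It also had the highest Scd1 of the controls, 957 FPKM. The part of fat tissue in the Dgat2 and Scd1 values was not tested.

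Fa2h, which hydroxylates fatty acids in sebocytes, keratinocytes and myelin-forming cells, had the highest SD on the log2 scale of the 9 genes in both lesion groups, 0.81 with NS and 0.51 with BZLF. It measured 90.6, 86.9, 107 and 113 FPKM in the controls, 96.3, 53.7, 24.5 and 49.1 FPKM in IMQ + NS lesions, and 38.1, 88.2, 61.4 and 69.2 FPKM in IMQ + BZLF lesions. IMQ + NS replicate 1 lay inside the control range, as did IMQ + BZLF replicate 2. Fa2h differed by -0.98 on the log2 scale in IMQ + NS against control (SE 0.35, adjusted p = 0.0387), just outside the limit. Without IMQ + NS replicate 1 it was -1.30 and without control replicate 2 it was -1.05, and both passed, as did median ratio scaling, equal sums and quantile normalization at -1.02 to -1.12. Without IMQ + NS replicate 3 it was -0.64, and in 8 of the 19 other fits its adjusted p was not below 0.05, with a highest value of 0.0891. Of 9 peripheral myelin genes 6 fell in the same comparison, where 11% of all tested genes were called lower. The summed level of the 9 myelin genes was 65.8 to 81.6 FPKM in the IMQ + NS group against 186 to 253 FPKM in the controls. The part of nerve in the Fa2h values was not tested.

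Elovl3, an elongase of saturated very-long-chain fatty acids that is expressed in sebaceous glands and hair follicles, was higher in the lesions. It measured 41.7, 48.1, 45.0 and 52.7 FPKM in the controls, 123, 91.4, 57.3 and 99.4 FPKM in IMQ + NS lesions, and 73.2, 89.0, 83.3 and 100 FPKM in IMQ + BZLF lesions. Each lesion sample exceeded each control, and IMQ + NS replicate 3 was the lowest lesion. Its log2 fold change was 0.93 (SE 0.21, adjusted p = 0.00511), under the fold limit, and it was 1.15 without IMQ + NS replicate 3.

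Soat1, which stores cholesterol as esters, was higher by a smaller amount. It measured 9.72, 9.58, 12.8 and 12.6 FPKM in the controls, 18.8, 14.7, 13.0 and 17.1 FPKM in IMQ + NS lesions, and 14.8, 17.8, 15.1 and 15.6 FPKM in IMQ + BZLF lesions. The lowest lesion exceeded the highest control only narrowly. For IMQ + NS against control the log2 fold change was 0.51 (SE 0.15, adjusted p = 0.0178). In 5 of the 19 other fits the adjusted p was not below 0.05, among them equal sums (0.38, adjusted p = 0.0645) and quantile normalization (0.35, adjusted p = 0.122). Soat2, the intestinal and hepatic enzyme, was near 0 with 0.10 ± 0.06 FPKM in the controls and 0.19 ± 0.08 FPKM in the IMQ + NS group.

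Mc5r, the receptor through which melanocortins act on sebaceous secretion, had the lowest level of the 9 genes in the controls. It measured 4.87, 4.95, 6.45 and 6.57 FPKM in the controls, 7.73, 5.79, 4.63 and 5.38 FPKM in IMQ + NS lesions, and 5.91, 10.3, 7.56 and 6.35 FPKM in IMQ + BZLF lesions. The IMQ + NS lesions spread on both sides of the controls. The log2 fold change of IMQ + NS against control was 0.03, with a 95% confidence interval from -0.37 to 0.43 (adjusted p = 0.897), and it was -0.10 under equal sums per sample, so its sign was not settled.

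Hair follicle genes moved with the genes that were higher. The 8 inner root sheath genes measured rose in the IMQ + NS group, with a summed level of 8329 to 10587 FPKM against 19.5 to 1974 FPKM in the controls, and so did all 10 hair shaft genes. Of all tested genes 11.4% were called higher in this comparison. In control replicate 2 the inner root sheath sum was 1974 FPKM, its Elovl3 value of 48.1 FPKM lay within the 41.7 to 52.7 FPKM of the other controls and its Soat1 value of 9.58 FPKM was the lowest of the group. Without control replicate 2 the log2 fold changes were 0.95 for Elovl3 and 0.44 for Soat1. The part of hair follicle growth in the Elovl3 and Soat1 values was not tested.

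**Figure D3:**
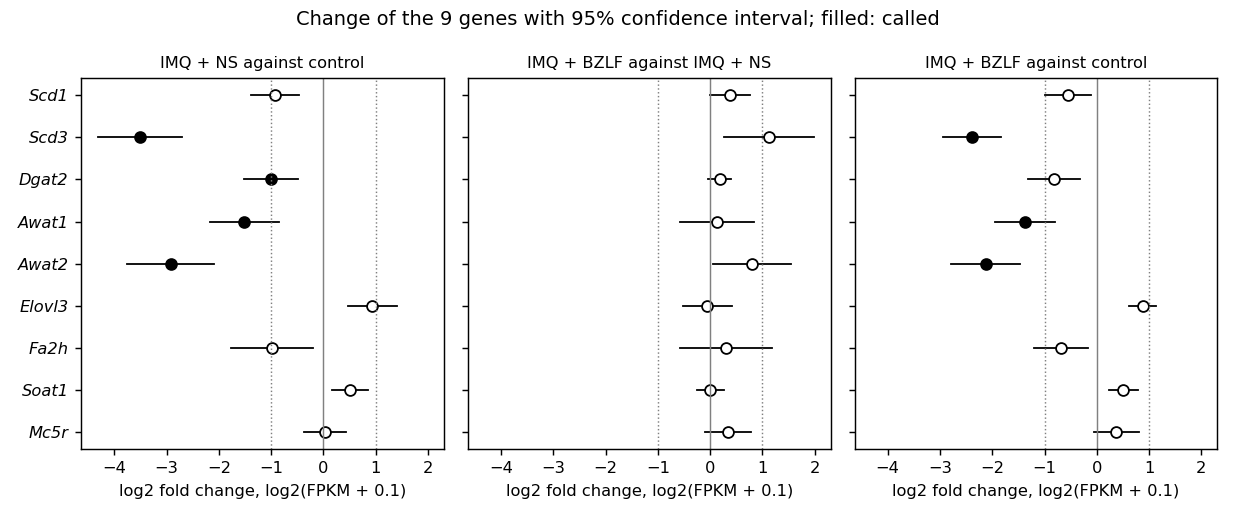
Log2 fold change of the 9 genes on the log2(FPKM + 0.1) scale with 95% confidence intervals (horizontal lines) in the 3 comparisons, where dotted lines mark 1 and -1 and filled circles mark called genes. Scd3, Awat2, Awat1 and Dgat2 are filled in IMQ + NS against control, 0 genes in IMQ + BZLF against IMQ + NS, and Scd3, Awat2 and Awat1 in IMQ + BZLF against control.

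Whether BZLF changed these genes in the lesions was examined by comparing IMQ + BZLF with IMQ + NS samples. None of the 9 genes was called by limma, where 2.52% of all tested genes were (0.321% higher and 2.2% lower). The FPKM values of the lesion groups overlapped for all 9 genes, whereas they did not overlap for 15.2% of all genes. Scd3 was at 26.6 ± 9.85 FPKM in the IMQ + BZLF group and 13.1 ± 7.84 FPKM in the IMQ + NS group, and Awat2 at 5.10 ± 1.51 and 3.08 ± 1.70 FPKM (SD, n = 4 each). The log2 fold changes were 1.13 for Scd3 (95% confidence interval 0.26 to 1.99, adjusted p = 0.124) and 0.80 for Awat2 (0.05 to 1.54, adjusted p = 0.194). Both genes had an unadjusted p below 0.05, 2 of the 9, where 22.7% of all genes did, and with the fold limit added Scd3 alone passed, where 0.576% of all genes were higher.

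These 2 values depended on IMQ + NS replicate 1, which had the highest Scd3 and Awat2 of its group. Without it, both genes were called higher in the IMQ + BZLF group, Scd3 by 1.48 on the log2 scale (adjusted p = 0.0258) and Awat2 at 1.118 (adjusted p = 0.0313). Without IMQ + BZLF replicate 2, the library with seminal vesicle transcripts and the highest Scd3 and Awat2 of its group, the values were 0.90 (adjusted p = 0.275) and 0.63 (adjusted p = 0.388).

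The other 7 genes differed less between the lesion groups. The log2 fold change was 0.37 for Scd1 (95% confidence interval -0.01 to 0.75), 0.34 for Mc5r (-0.10 to 0.79), 0.30 for Fa2h (-0.58 to 1.18) and 0.18 for Dgat2 (-0.03 to 0.39). It was 0.13 for Awat1 (-0.57 to 0.84), 0.0015 for Soat1 (-0.26 to 0.26) and -0.06 for Elovl3 (-0.53 to 0.41). The intervals of Dgat2, Soat1, Elovl3, Scd1, Mc5r and Awat1 stayed within 1 on the log2 scale, and that of Fa2h did not. The median log2 fold change of the 9 genes was 0.30, and that of all genes was -0.02. In the neutrophil list all 6 genes fell in this comparison, where 2.2% of all tested genes were called lower. The sum of the neutrophil list was 62.6 to 83.2 FPKM in the IMQ + BZLF group against 3126 to 9889 FPKM in the IMQ + NS group. Of the 6 genes, Ly6g was not called without IMQ + BZLF replicate 2 (-2.18, adjusted p = 0.126). The part of neutrophils in the values of the sebaceous genes was not tested.

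Compared with the control group, the treated lesions remained lower for Scd3, Awat2 and Awat1. These 3 genes were called lower and 0 of the 9 were called higher, where 10.1% of all genes were called lower and 9.65% higher. At an adjusted p below 0.05 alone 6 were lower and 2 higher, against 29.2% and 23.8% of all genes. Of these 8, the adjusted p was not below 0.05 in some of the 19 other fits for Scd1 (8 fits), Fa2h (6 fits) and Soat1 (1 fit). The log2 fold changes were -2.39 for Scd3 (adjusted p = 0.000153), -2.13 for Awat2 (adjusted p = 0.000557) and -1.38 for Awat1 (adjusted p = 0.00232). Without control replicate 2 they were -2.52, -2.32 and -1.53. This comparison and that of IMQ + NS use the same 4 controls.

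Dgat2 (-0.82), Fa2h (-0.68) and Scd1 (-0.55) were below the controls at an adjusted p under 0.05 without passing the fold limit. Elovl3 (0.88, adjusted p = 0.000429) and Soat1 (0.51, adjusted p = 0.00860) were above them in the same way. For Mc5r the difference was 0.37 on the log2 scale with a 95% confidence interval from -0.06 to 0.81 (adjusted p = 0.128). The treated lesions and the controls did not overlap for 6 of the 9 genes, compared with 47.5% of all genes, and the 3 that overlapped were Scd1, Fa2h and Mc5r. The adjusted p of Scd1 was 0.0398 and became 0.0516 without control replicate 2.

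By level, Scd1 led in every group, followed in the controls by Dgat2 at 186 ± 66.6 FPKM, Scd3 at 135 ± 24.3 FPKM, Fa2h at 99.4 ± 12.7 FPKM and Awat1 at 71.9 ± 16.8 FPKM. Next came Elovl3 at 46.9 ± 4.71 FPKM, Awat2 at 23.0 ± 8.24 FPKM, Soat1 at 11.2 ± 1.74 FPKM and Mc5r at 5.71 ± 0.93 FPKM (SD, n = 4 each). From Dgat2 to Elovl3 each neighbor in this order overlapped the next in FPKM, and the remaining steps did not. In the IMQ + NS group Elovl3 took second place at 92.7 ± 27.1 FPKM, while Scd3 stood seventh and Awat2 last, and every gene after Scd1 in this order overlapped the next in FPKM. The sum of the 9 genes was 1101 to 1595 FPKM in the controls, 481 to 787 FPKM in the IMQ + NS group and 648 to 951 FPKM in the IMQ + BZLF group, and Scd1 alone made up 49.0 to 62.4% of it.

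Samples of 1 group differed in a shared direction for most of these genes. IMQ + NS replicate 1 was the highest of its group for 7 of the 9 genes and replicate 3 the lowest for 8. IMQ + BZLF replicate 1 was the lowest of its group for all 9 genes and replicate 2 the highest for 6. Among the controls, replicate 4 was the highest for 6 genes and replicate 2 the lowest for 5. The median SD within a group on the log2 scale was 0.46 for the 9 genes in the IMQ + NS group against 0.13 for all genes, 0.36 against 0.15 in the IMQ + BZLF group, and 0.27 against 0.25 in the control group. Far2, which makes fatty alcohols for wax esters, had the same extremes, with 44.0 FPKM in IMQ + NS replicate 1, 10.8 FPKM in replicate 3 and 21.3 FPKM in IMQ + BZLF replicate 1.

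**Figure D4:**
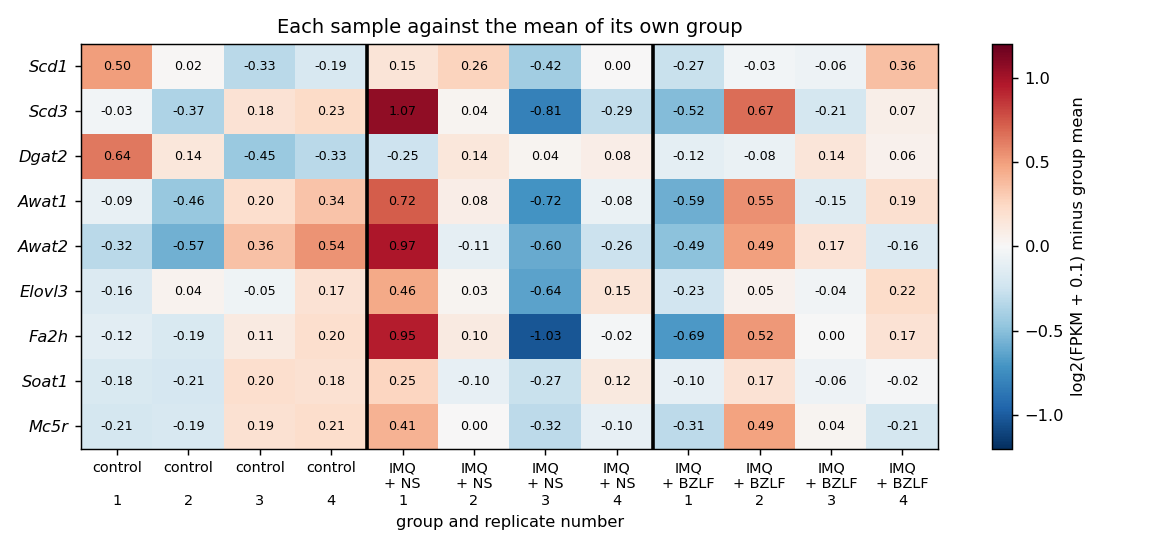
Deviation of each sample from the mean of its own group in log2(FPKM + 0.1), with genes in rows and the 12 samples in columns, where red is above and blue below the group mean. IMQ + NS replicate 1 is at 1.07 for Scd3, 0.97 for Awat2 and 0.95 for Fa2h, IMQ + NS replicate 3 is at -0.81, -0.60 and -1.03, and IMQ + BZLF replicate 1 is below 0 for all 9 genes.

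Further genes that mark sebocytes were examined in a list of 11. In IMQ + NS against control 6 fell, 1 rose and 4 were not called, with a median log2 fold change of -1.06. By the same rule 11% of all tested genes fell and 11.4% rose. Gata6, a transcription factor of the upper follicle and sebaceous duct, fell by 1.44 on the log2 scale, Cidea, a lipid droplet protein, by 1.31 and Ldhb, a lactate dehydrogenase subunit, by 1.27. Mgst1, a microsomal glutathione transferase abundant in sebocytes, fell from 355 ± 82.1 to 153 ± 4.57 FPKM (-1.18, adjusted p = 0.000496), and Cd36, a fatty acid transporter also found in fat and macrophages, by 1.16. Prdm1, a transcription factor of sebaceous and terminally differentiating epidermal cells, rose from 1.79 ± 0.33 to 8.16 ± 0.54 FPKM (2.15, adjusted p = 9.70e-06).

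The 4 genes of this list that were not called included Pparg, a regulator of sebocyte and adipocyte differentiation, which differed by -0.99 on the log2 scale (adjusted p = 0.0092), and Krt79, a keratin of the sebaceous duct, at 0.41 (adjusted p = 0.103). The others were Plin2 at -0.83 and Lrig1 at 0.48. In IMQ + BZLF against IMQ + NS 0 of the 11 were called, with values between -0.55 and 0.46, where 2.52% of all genes were called. In IMQ + BZLF against control 4 were lower and 1 higher, against 10.1% and 9.65% of all genes. Mgst1, at -0.98 in that comparison, was also called lower without control replicate 2 (-1.17) or without IMQ + BZLF replicate 2 (-1.02). Defining sebocyte genes were present in every group, and the summed level of the list was 893 to 1128 FPKM in the controls, 606 to 775 FPKM in the IMQ + NS group and 493 to 726 FPKM in the IMQ + BZLF group.

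Among 36 other genes of fatty acid and sebum lipid synthesis, 9 fell and 2 rose in IMQ + NS against control, with a median log2 fold change of -0.52. By the same rule 11% of all tested genes fell and 11.4% rose. Thrsp, a protein that promotes lipogenesis, fell from 380 ± 111 to 74.5 ± 16.2 FPKM (-2.34, adjusted p = 5.17e-05). Mlxipl, a carbohydrate-responsive transcription factor, fell by 1.92 on the log2 scale, Acacb, an acetyl-CoA carboxylase, by 1.72 and Far2 by 1.72. Fads2, the delta-6 desaturase, was called higher at 1.51 with overlap between the groups, and Acsl3, an acyl-CoA synthetase, at 1.21. Control replicate 2 held 34.0 FPKM of Fads2 against 6.67 to 9.76 FPKM in the other controls, and without it the value was 2.04. Srebf1, a transcription factor of lipogenic genes, differed by -0.47 on the log2 scale (adjusted p = 0.0230) and Dgat1, the other diacylglycerol acyltransferase, by -0.88 (adjusted p = 0.000879). Far1, a relative of Far2, differed by 0.61 (adjusted p = 0.0150). These 3 did not pass the fold limit. The part of fat tissue in the values of the 36 genes was not tested.

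Treatment called 0 of these 36 genes against IMQ + NS, where 2.52% of all tested genes were called. Thrsp was at 128 ± 10.9 FPKM in the IMQ + BZLF group, 0.80 higher on the log2 scale (adjusted p = 0.0151) and no overlap with the IMQ + NS group. Against the control group 6 were lower and 2 higher in the IMQ + BZLF group, against 10.1% and 9.65% of all genes. Of 19 genes of cholesterol synthesis and storage 1 rose in IMQ + NS against control, Sqle (1.10 on the log2 scale), squalene epoxidase, and 0 fell, with a median log2 fold change of 0.34. By the calling rule 11.4% of all genes rose and 11% fell in that comparison. At an adjusted p below 0.05 alone 10 of the 19 were higher and 2 lower, against 29% and 27.1% of all genes. With samples rescaled to equal sums 0 of the 19 were called higher. In both other comparisons 0 of the 19 were called. In IMQ + BZLF against IMQ + NS 8 were lower and 0 higher at an adjusted p below 0.05 alone. The share of all genes at this cutoff is not given here, so the count does not set the list apart. Of all genes 22.7% had an unadjusted p below 0.05 by limma in this comparison. The median log2 fold change of the 19 genes there was -0.31, and that of all genes was -0.02. The sum of the list was 645 to 756 FPKM in the IMQ + BZLF group and 783 to 860 FPKM in the IMQ + NS group, without overlap. For Sqle the log2 fold change in IMQ + BZLF against IMQ + NS was -0.50 (adjusted p = 0.0124).

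Of 6 melanocortin genes sought, 5 were in the table and 4 were tested. Mrap, an accessory protein of the ACTH receptor also expressed in fat, fell from 39.4 ± 10.01 to 13.3 ± 3.34 FPKM in the IMQ + NS group (-1.57, adjusted p = 0.000377). Mc1r, the pigment cell receptor, was called higher at 2.96 (adjusted p = 0.0137) although the groups overlapped. Control replicate 2 held 4.37 FPKM of it against 0.188 to 0.369 FPKM in the other controls, and without it the value was 3.89. Pomc, which encodes the melanocortin precursor, was at 0.24 ± 0.09 FPKM in the controls and 0.15 ± 0.12 FPKM in the IMQ + NS group. In IMQ + BZLF against control Agrp, an antagonist, and Mc1r were called higher and Mrap lower, and in IMQ + BZLF against IMQ + NS 0 were called. The call of Agrp was lost without control replicate 2 (0.92, under the fold limit) and without IMQ + BZLF replicate 2 (adjusted p = 0.0566).

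Genes of other tissues in the skin moved in IMQ + NS against control, where 11% of all tested genes were called lower and 11.4% higher. Of 13 adipocyte genes 8 fell in IMQ + NS against control, with a median log2 fold change of -1.26, and of these Adrb3 fell by 1.96, Cfd by 1.89, Adipoq by 1.79 and Plin1 by 1.70 on the log2 scale. Their sum was 2304 to 3611 FPKM in the IMQ + NS group, 3194 to 3793 FPKM in the IMQ + BZLF group and 4710 to 10121 FPKM in the controls. All 9 skeletal muscle genes fell, from 3654 to 8883 FPKM in sum to 684 to 1691 FPKM. Of 10 epidermal keratinocyte genes 5 rose and 1 fell, with a sum of 5074 to 7884 FPKM in the IMQ + NS group, 2542 to 4140 FPKM in the IMQ + BZLF group and 2522 to 4254 FPKM in the controls. The part of these tissues in the values of the sebaceous genes was not tested.

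**Figure D5:**
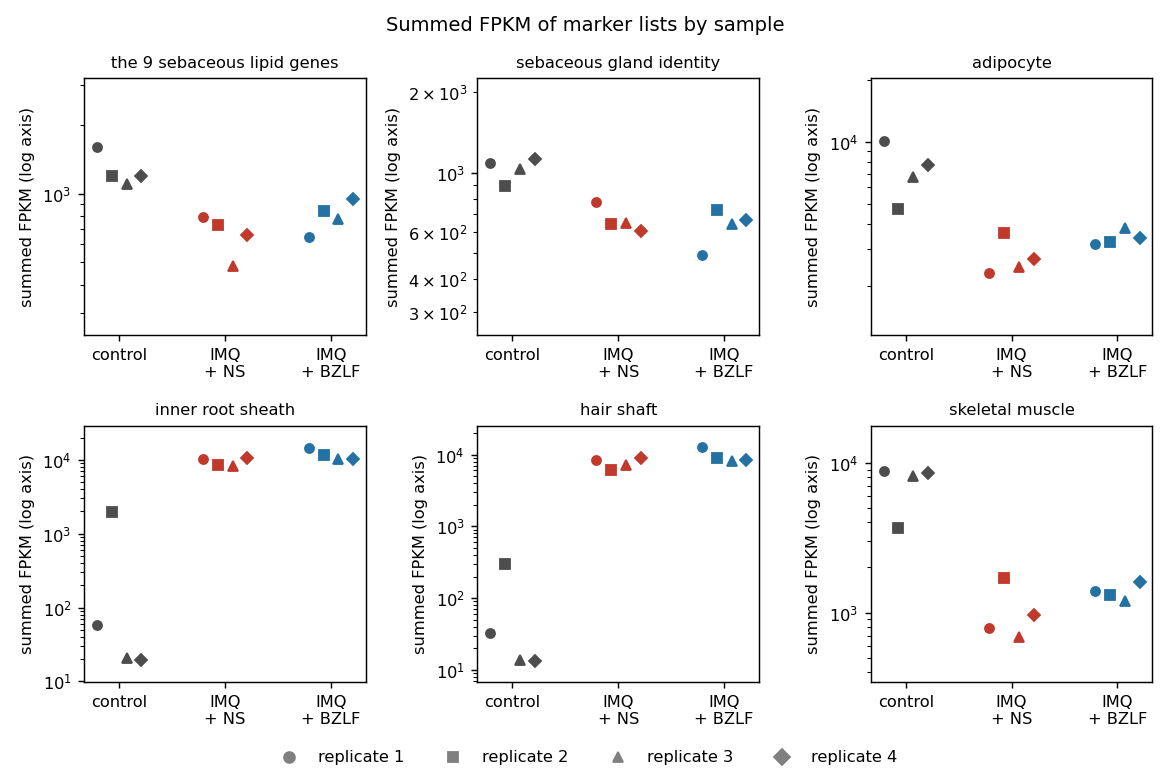
Summed FPKM per sample (log axes, own scale per panel) of the 9 sebaceous lipid genes and of lists of sebaceous identity, adipocyte, inner root sheath, hair shaft and skeletal muscle genes, with the symbol shape giving the replicate. The sebaceous lipid sum lies at 1101 to 1595 FPKM in the controls, 481 to 787 FPKM in IMQ + NS and 648 to 951 FPKM in IMQ + BZLF, and control replicate 2 stands apart in the hair and muscle panels.

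The genes whose pattern over the 12 samples was nearest to the mean of the 9 were sought by the root mean square difference of centered log2 values among 12648 genes whose mean FPKM reached 1. They were Mgll (0.1300), a monoacylglycerol lipase, Slc22a17 (0.145), Six5 (0.147), Echdc1 (0.153) and Hacd2 (0.156), a dehydratase of fatty acid elongation. The 9 genes themselves lay farther from this mean, from 0.226 for Fa2h to 1.06 for Scd3, so the mean describes no single member closely. Mgll measured 141, 74.3 and 88.2 FPKM on average in control, IMQ + NS and IMQ + BZLF samples. Within the set, Mc5r and Soat1 (0.252), Scd1 and Dgat2 (0.254), Scd3 and Awat2 (0.325) and Awat1 and Fa2h (0.334) were each nearest to the other by the same measure, and Elovl3 was nearest to Soat1 (0.265).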

How the data were processed

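Total RNA of mouse back skin was sequenced in 12 samples, 4 per group, and the authors deposited FPKM values, 1 per gene and sample, normalized for transcript length and sequencing depth and not pooled. The sources differ on how they were made. The study's methods name mirVana extraction, a TruSeq Stranded library with ribosomal RNA removal, Bowtie2 and eXpress, and the submitters' processing notes and sample labels name TRIzol, a VAHTS Universal V6 library, fastp, HISAT2, HTSeq, R 3.2.0 and the mm10 build (GRCm38). The authors tested counts with DESeq2. Only FPKM values were used here, so the depth behind a value is unknown and its precision rests on the 4 replicates.

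The 15288 of 18505 genes whose mean FPKM reached 0.1 were tested on log2(FPKM + 0.1) with limma 3.58.1 in R 4.3.3, with a variance trend, separately for each pair of groups. The added 0.1 understates the fold change of low genes. P-values were adjusted over all tested genes by the Benjamini-Hochberg method, and a call required both an adjusted p below 0.05 and a change of more than 1 on the log2 scale. Ratios of genes were compared with an exact permutation test (two-sided, 70 ways to split 4 and 4 samples), whose smallest p is 0.0286. The fit was also run on simulated data with independent noise and changes larger than the fold limit. Those data cannot show how it handles changes near the limit or deviations that genes share within a sample. Python 3.11.15, pandas 2.3.3, matplotlib 3.10.9 and Biopython 1.88 were used for the rest. Coordinates and coding sequences came from GENCODE M21 and promoters from RefSeq GRCm38.p6.

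The 9 genes, the 12 other gene lists and the tests were chosen with earlier results of these data known. Besides the 9 genes, the text names up to 4 called genes per list with the largest change among those whose mean FPKM reached 1. This was done for the sebaceous identity, fatty acid, cholesterol, melanocortin and adipocyte lists only. Named in addition were the most abundant genes of the sebaceous identity list, and Scd2, Scd4, Dgat1, Dgat2l6, Far1, Far2, Soat2, Pparg, Srebf1, Krt79, Prdm1 and Mgst1. Plin2, Lrig1, Fads2, Acsl3, Pomc, Agrp and Ly6g were named after their values were seen. For the hair, myelin, epidermal, muscle, neutrophil and seminal vesicle lists only counts or sums are given, apart from Ly6g. Some items of the lists are not reported here and were left out of their counts and sums. The alternatives were 0.01 or 1 added before the logarithm, no filter or a minimum mean of 1 FPKM, scaling by median ratios, to equal sums or by quantiles, 1 fit of all 12 samples, variances without the trend or with robust moderation, a block for the replicate number, an unadjusted p, no fold limit and leaving out each replicate.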

Additional observations from a re-analysis of the deposited data

Results flagged for a closer look

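Of 72 groups of 4 samples examined, 8 held a sample whose gap to its nearest neighbor took up most of the group's range, where chance gives about 1 in 20, or 3.6. Control replicate 2 stood apart in 4 lists, with 1974 FPKM of inner root sheath genes (19.5 to 58.2 in the other controls), 299 FPKM of hair shaft genes (13.5 to 32.3), 3654 FPKM of skeletal muscle genes (8184 to 8883) and 39.6 FPKM of seminal vesicle genes (0 in the others). IMQ + BZLF replicate 2 held 39.5 FPKM of seminal vesicle genes, against 0 to 0.044 in its group. Control replicate 3 held 50.3 FPKM of neutrophil genes, against 31.6 to 34.3. For the sebaceous genes, Scd3 in percent of Scd1 was 6.14 in IMQ + NS replicate 1, against 2.45 to 2.77 in its group, and 8.91 in IMQ + BZLF replicate 2, against 4.48 to 4.95.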

How the results depend on the processing

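Of the 9 genes, 4 were called lower in IMQ + NS against control, and this count ranged from 3 to 6 over the alternatives. It was 3 with 1 added before the logarithm, 5 with median ratio scaling, and 6 with equal sums, with quantile normalization and with no fold limit. Equal sums and quantile normalization moved the median log2 fold change of all genes from 0.05 to -0.07 in both cases. The count called higher was 0, and 2 with no fold limit. Over the 8 fits that each left out 1 replicate, 3 to 5 genes were called lower and 0 to 1 higher, the 1 being Elovl3 without IMQ + NS replicate 3. Scd3, Awat2 and Awat1 were called lower in this comparison in all 20 alternatives with a fold limit. In IMQ + BZLF against IMQ + NS the count called higher was 0, 1 with an unadjusted p, and 0 to 2 when 1 replicate was left out, the 2 being Scd3 and Awat2 without IMQ + NS replicate 1. The count called lower was 0 throughout. In IMQ + BZLF against control 3 genes were lower and 0 higher, and with no fold limit 6 were lower and 2 higher.

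The sign of small log2 fold changes reversed. For Mc5r in IMQ + NS against control it was -0.011 with median ratio scaling, -0.10 with equal sums, -0.13 with quantile normalization, and -0.11 to 0.13 when 1 replicate was left out. In IMQ + BZLF against IMQ + NS, leaving out 1 replicate gave -0.27 to 0.094 for Elovl3, -0.10 to 0.38 for Awat1, -0.089 to 0.086 for Soat1 and -0.042 to 0.61 for Fa2h. The cause of these changes was not tested.

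With the replicate block, 4 genes were lower and 0 higher in IMQ + NS against control, 0 and 0 in IMQ + BZLF against IMQ + NS, and 3 and 0 in IMQ + BZLF against control, and no call of the 9 genes changed. The deviations of samples with the same number correlated at -0.15 to 0.18, -0.03 to 0.26 and -0.08 to 0.18 in the 3 comparisons, and 2, 3 and 2 of 4 samples correlated best with their own number. These values do not settle whether equal numbers mark pairs. The main fit did not treat them as pairs.

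The depth of each library is unknown, so no counting interval could be given, and with 4 samples a group the exact permutation test cannot go below 0.0286. The values of Scd1 and Scd3 depend on how reads from shared sequence were assigned.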

Other observations

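Far2 stood near Awat1 in level in each group, with 77.4 ± 16.5 FPKM in the controls, 25.9 ± 13.7 FPKM in the IMQ + NS group and 34.9 ± 11.5 FPKM in the IMQ + BZLF group (SD, n = 4 each). Its relative Far1 stood at 11.7 ± 3.13, 17.5 ± 1.82 and 15.0 ± 1.76 FPKM. Dgat2l6, between the Awat genes on chromosome X, stood at 6.84 ± 2.26 FPKM in the IMQ + BZLF group and 8.26 ± 2.17 FPKM in the IMQ + NS group, a difference of -0.29 on the log2 scale (adjusted p = 0.536, limma), where Awat2 stood at 0.80.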
